A study of Mus musculus with 6 samples.

Results

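The genes described here encode the proteins of the cytosolic ribosome, measured in a calf muscle of mice, the gastrocnemius, at a young and an advanced age. They were chosen by name: every gene with a probe set that the platform's gene table maps to a single symbol made of Rpl or Rps and a digit, leaving out the Rps6k kinases and pseudogenes. This gave 102 probe sets for 47 genes, of 18194 genes with a probe set of a single symbol on the array. Each gene is represented by its probe set with the highest mean log2 signal. Of the 47 genes 40 encode core ribosomal proteins, 20 of the large and 20 of the small subunit, and 6 are paralogs of core proteins (Rpl3l, Rpl7l1, Rpl22l1, Rpl39l, Rps27l and Rps4l). The remaining gene, Rps19bp1, encodes a protein that binds Rps19 and is no part of the ribosome. A further 30 ribosomal protein genes, Rpl3 and Rpl5 among them, appear on the array only through probe sets that also name other genes or pseudogenes, and these stayed unnamed.

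The study compared 3 arrays of young muscle (replicates 1, 2 and 3) with 3 arrays of aged muscle (replicates 51, 52 and 53). All were Affymetrix mouse arrays of total RNA from male C57B1/6 mice with a normal karyotype and no stated treatment or mutation. The sources used here do not state the ages. The labels give a single sample identifier per group and say nothing of separate animals. The p-values below therefore reflect the spread between arrays alone, and that spread may be technical. In such bulk tissue, fewer cells of a type and less RNA per cell cannot be told apart.

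The ribosome is built from a small subunit, which reads the messenger RNA, and a large subunit, which joins amino acids into protein. Its proteins are made in matching amounts, and their messenger RNAs are short, very abundant and mostly begin with a run of pyrimidines, the TOP tract, through which mTOR signalling controls their translation. Skeletal muscle has a large-subunit protein of its own: Rpl3l takes the place of Rpl3 in ribosomes of mature fibres.

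The start sites of a few genes are printed to show where pyrimidines lie around the annotated start. Rpl7a, Rpl27a, Rps7 and Rpl37 lie towards the ends of the range described below, and Rpl3l is the muscle paralog. Promoters of 300 bases from RefSeq (GRCm38.p6) were found for 41 of the 47 genes. Each line runs from 45 bases before to 30 bases after the annotated first transcribed base, and capitals mark the first of the longest runs of C or T within 30 bases of that base. The windows are chr2:26910762-26910836 on the plus strand for Rpl7a, chr7:109519150-109519224 on the plus strand for Rpl27a, chr12:28635924-28635998 on the minus strand for Rps7, chr15:5116568-5116642 on the plus strand for Rpl37, and chr17:24727781-24727855 on the plus strand for Rpl3l.
Rpl7a: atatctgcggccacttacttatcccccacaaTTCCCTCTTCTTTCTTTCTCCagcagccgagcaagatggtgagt
Rpl27a: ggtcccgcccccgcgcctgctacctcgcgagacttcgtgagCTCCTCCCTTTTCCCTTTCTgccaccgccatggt
Rps7: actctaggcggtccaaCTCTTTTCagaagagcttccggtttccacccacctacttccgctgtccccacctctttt
Rpl37: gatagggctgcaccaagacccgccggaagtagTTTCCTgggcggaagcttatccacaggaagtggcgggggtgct
Rpl3l: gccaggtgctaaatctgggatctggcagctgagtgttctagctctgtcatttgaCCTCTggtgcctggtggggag
The run was 21 bases long in Rpl7a, 20 in Rpl27a, 8 in Rps7, 6 in Rpl37 and 5 in Rpl3l. The marked run spanned the first transcribed base in Rpl7a and Rpl27a, lay wholly before it in Rps7 and Rpl37, and wholly after it in Rpl3l. In Rps7 another run of 8, the last letters of its line, lay wholly after that base and reached the edge of the window. Runs are counted on both sides of the start, so a match need not lie in the messenger RNA. A run of at least 8 bases lay in that window in 23 of the 41 genes (56.1%) and in 25.8% of 27025 genes of the reference, taking for each gene the start site with the longest run. The letters CCGGAA, the core bound by ETS factors, stood on either strand within the 300 bases of any start site in 26 of the 41 genes (63.4%) and in 16.7% of all genes. The GC box GGGCGG stood in 23 genes (56.1%, against 38.2% of all) and the letters TATAAA in 5 (12.2%, against 15.7%). These are matches of letters and not shown to be sites. Among tested members the median change was -0.12 for the 22 genes with a run of at least 8 and -0.33 for the 17 without.

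Skeletal muscle markers were present as labelled: all 12 of the list (Acta1, Ckm, Myh4, Ttn and others) were measured, at mean log2 signals of 11.35 to 19.25, and 0 of them passed the test. Median signals per array ran from 637 to 833. The first fluidics station handled the young arrays and aged replicate 51, while the second handled aged replicates 52 and 53 under another protocol name. The log2 ratio of 3 prime to 5 prime control signal, a measure of RNA quality, was 1.71 to 1.77 on young arrays and 2.00 to 2.86 on aged arrays, highest on aged replicate 53. Fits with the station or this ratio as a term were run as alternatives. All young arrays were on the first station. An estimate with the station as a term is therefore that of aged replicate 51 against the young arrays, the same as within the first station. The ratio did not overlap between the groups, so the fit with it cannot fully separate RNA quality from age.

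Messenger RNAs of ribosomal proteins lay slightly lower in aged muscle as a group, and 0 of the 44 tested genes passed the test at an adjusted p of 0.05 (limma with Benjamini-Hochberg adjustment over 22519 probe sets, of which 1.05% passed, 0.742% lower and 0.311% higher in aged muscle). The changes, aged minus young on the log2 scale, ran from -1.06 for Rpl7a to 1.12 for Rpl37. The median was -0.20, with 33 genes lower and 11 higher, against a median of 0.00279 over all 11763 tested genes. Median centring lowered the change of every tested gene alike (median over all tested genes -0.11), and 39 of the 44 were then lower. After quantile normalization 29 were lower. The smallest adjusted p was 0.0607, for Rpl27a. At an unadjusted p under 0.05, 13 members were lower and 1 was higher in the limma fit, beside 5.61% and 4.43% of all tested probe sets, and a linear model without moderation passed 0 of all probe sets after adjustment. On 17 of the 44 the 3 aged arrays all lay below the 3 young arrays, beside 8.74% of all tested probe sets, and on 0 they all lay above, beside 7.41%.

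Some alternatives passed a few members. The count was 4 without aged replicate 53 (Rpl37, Rpl7, Rpl27a and Rps7, beside 1.52% of all probe sets) and 1 without aged replicate 52 (Rpl7a, beside 0.662%). Within the first station it was 4 (Rpl37, Rpl7a, Rps3 and Rps7, beside 1.62%), a fit of 1 aged array against 3 young ones in which the lone array is assumed to vary like the young. With the station as a covariate it was 1 (Rps7, beside 1.31%), with estimates that again set aged replicate 51 against the young arrays. With the RNA quality ratio it was 2 (Rpl37 and Rpl7, beside 0.613%). A filter at the 75th percentile (beside 2.40%) and array weights (beside 1.22%) each passed Rpl27a alone.

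**Figure D1:**
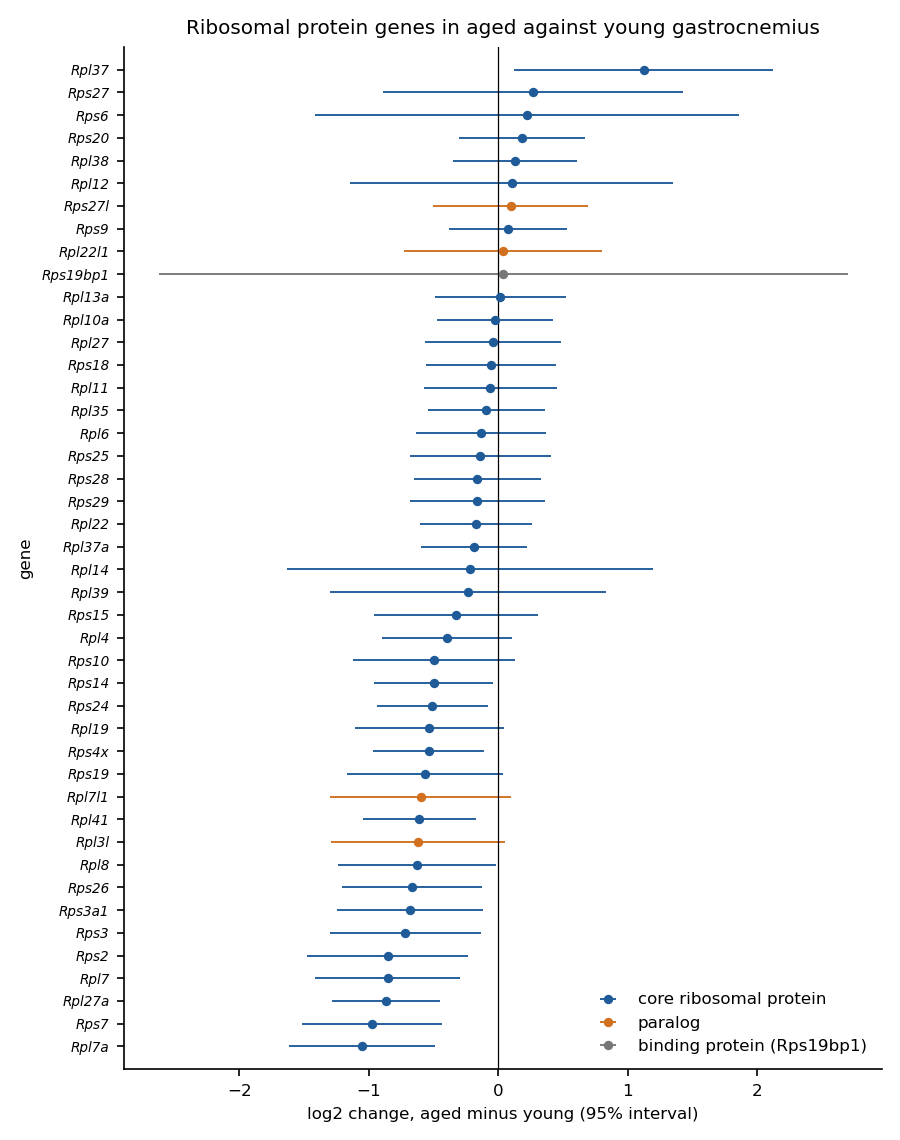
Points are the fitted log2 change of each of the 44 tested genes, aged minus young (n = 3 arrays per group), and bars are 95% intervals from limma. Most points lie left of 0 (33 of 44), the intervals of 14 genes exclude 0 before adjustment, and the widest interval belongs to Rps19bp1, the dimmest tested gene.

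Ribosomal proteins are among the brightest genes on the array, so genes of like brightness give a closer background. When all tested genes were split into 5 groups of equal size by mean signal, 37 of the 44 members fell in the brightest group. There the members' median was -0.33, with 30 of 37 lower, and the median of all 2353 genes was -0.10, with 59.0% lower. The 3 aged arrays lay below the 3 young arrays on 16 of these 37 members (43.2%) and on 19.0% of all genes of that group, and above them on 0 members and on 8.63% of all genes. At an unadjusted p under 0.05, 13 of the 37 members (35.1%) and 16.6% of all genes of the group were lower. That group starts at a mean log2 of 12.23, and narrower ranges within it differed. From 14 to 16, 13 of 13 members were lower (median -0.54), beside 63.0% of all genes (median -0.14). At 16 or more, 7 of 11 members (63.6%) were lower (median -0.092), beside 70.5% of all genes (median -0.16). There the aged arrays all lay below the young on 27.3% of members and 28.9% of all genes. The 7 members outside the brightest group ranged from -0.60 to 0.27. Across the 44 members the change and the brightness had a Spearman correlation of -0.13, and across all tested genes of -0.12. Genes are not independent replicates, and these correlations share their arrays.

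**Figure D2:**
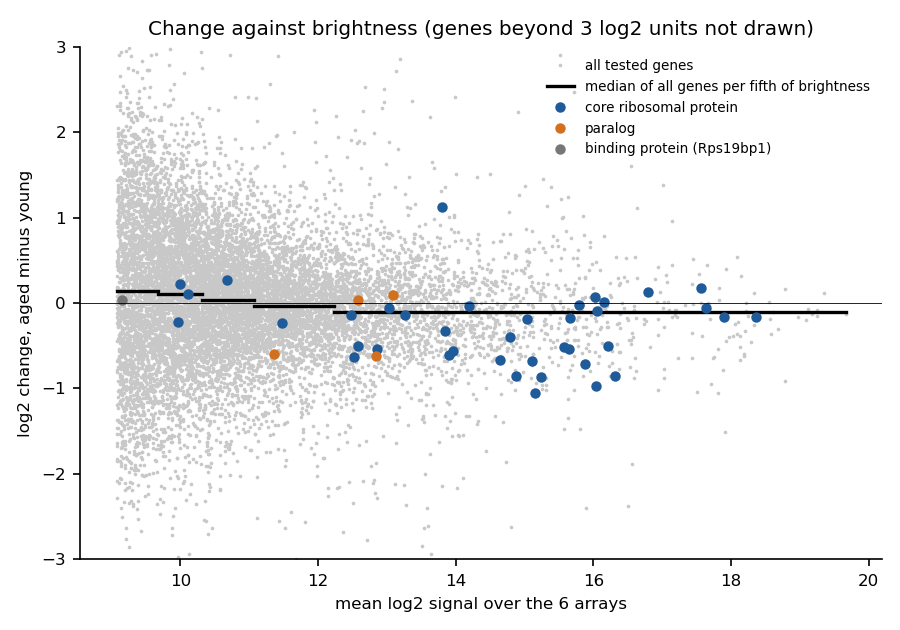
The horizontal axis is the mean log2 signal over the 6 arrays and the vertical axis the log2 change, aged minus young. Grey points are all tested genes (37 of them beyond 3 log2 units are not drawn), black lines the medians of all genes in each of the 5 brightness groups, and coloured points the 44 members, most of which lie in the brightest group below its line at -0.10.

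The lower level was seen on each aged array. Measured against each gene's young mean, the median over the 44 members was -0.27 on aged replicate 51, -0.34 on replicate 52 and -0.20 on replicate 53, and between -0.072 and 0.037 on the young arrays, which are close to 0 by construction. The median over all genes of the brightest group was -0.26, -0.19 and 0.12 on the same aged arrays. The members' median was thus close to that of the brightest group on aged replicate 51 and below it on replicates 52 and 53. On replicate 53 the medians lay on opposite sides of the young mean. Aged replicate 51 was the lowest of the 6 arrays for 16 members, replicate 52 for 13 and replicate 53 for 6, and the young arrays together for 9. Without aged replicate 52 the members' median was -0.32. Within the first station, where aged replicate 51 alone stands against 3 young arrays, it was -0.27, the value of that array given above. With the RNA quality ratio as a covariate it was -0.40, with 35 of 44 lower. That ratio did not overlap between young and aged arrays, so this fit cannot fully separate it from age.

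**Figure D3:**
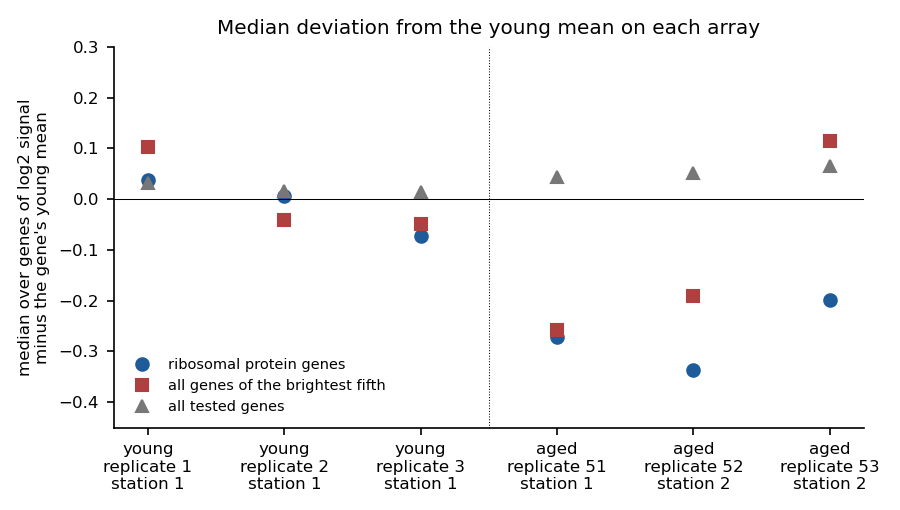
For each of the 6 arrays, labelled with group, replicate and fluidics station, the points give the median over genes of the log2 signal minus the gene's young mean. Circles are the 44 ribosomal protein genes, squares all genes of the brightest group and triangles all tested genes; the circles of the aged arrays lie between -0.34 and -0.20.

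Among proteins of the large subunit 20 core genes were tested, with 16 lower and a median of -0.18. Rpl7a had log2 signals of 15.72, 15.66 and 15.68 on young and 14.52, 15.22 and 14.16 on aged arrays. The groups did not overlap, and the aged arrays spread far more than the young ones. The young mean was 2.08-fold the aged mean (log2 change -1.06 ± 0.26 (SE, n = 3 per group), limma adjusted p = 0.102). Rpl7a passed without aged replicate 52 (-1.35, limma adjusted p = 0.0266) and within the first station (-1.17, limma adjusted p = 0.0321). With the RNA quality ratio in the fit it was at -0.50 (limma adjusted p = 0.513).

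Rpl27a, a core protein of the large subunit, had even values within each group. Its log2 signals were 15.69, 15.77 and 15.57 on young and 14.91, 14.71 and 14.81 on aged arrays, with no overlap and an SD of 0.102 on young and 0.0981 on aged arrays. The young mean was 1.82-fold the aged mean (-0.87 ± 0.19, limma adjusted p = 0.0607). It passed when aged replicate 53 was left out (-0.87, limma adjusted p = 0.0376), with array weights (limma adjusted p = 0.0393) and with a stricter filter (limma adjusted p = 0.0428). With any other array left out it stayed between -0.92 and -0.82, with a limma adjusted p of up to 0.322.

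Rpl7 had log2 signals of 15.49, 15.33 and 15.11 on young and 14.15, 14.19 and 15.02 on aged arrays. The groups did not overlap, and aged replicate 53 lay close to the lowest young array. The change was -0.85 ± 0.26 (limma adjusted p = 0.212), and the other probe sets of the gene were at -0.61 and -0.89. Rpl7 passed without aged replicate 53 (-1.14, limma adjusted p = 0.0127) and with the RNA quality ratio in the fit (-1.45, limma adjusted p = 0.045).

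Rpl37, a small zinc-binding protein of the large subunit, was the member with the greatest positive change. Its log2 signals were 12.88, 13.41 and 13.42 on young and 15.35, 14.72 and 13.01 on aged arrays. Aged replicates 51 and 52 were well above the young arrays, while replicate 53 lay among them. The change was 1.12 ± 0.46 (limma adjusted p = 0.431), and without aged replicate 53 it was 1.80 ± 0.26 (limma adjusted p = 0.00526). It was 2.11 within the first station (limma adjusted p = 0.0153), 2.49 with the RNA quality ratio (limma adjusted p = 0.0288) and 0.63 without aged replicate 51. The single probe set of this gene ends in _x_at, a kind that can also bind related sequences.

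Rpl8, Rpl41 and Rpl19, chosen after their values were seen, also had non-overlapping groups. Rpl8 was at -0.63 ± 0.28, Rpl41 at -0.61 ± 0.20 and Rpl19 at -0.53 ± 0.26, with limma adjusted p of 0.275 to 0.531. The dimmer probe sets of Rpl41 were at -0.15, -0.088 and -0.17, with groups that overlapped. With the station in the fit Rpl8 was at -1.08 and Rpl19 at -0.93. Several other large-subunit genes lay closer to 0. Rpl38, a protein known for its part in translating Hox messages, was at 0.13 ± 0.22, and Rpl12, a stalk-base protein, at 0.10 ± 0.57. Rpl11, which with Rpl5 can hold Mdm2 in check, was at -0.063 ± 0.24. Rpl13a, which also regulates translation of inflammatory messages, was at 0.015 ± 0.23, and Rpl22 at -0.18 ± 0.20. Median centring, which moved the median of all tested probe sets from 0.0079 to -0.11, put Rpl12 at -0.014 and Rpl13a at -0.10, and quantile normalization put Rpl12 at -0.014 and Rpl11 at 0.019.

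Among proteins of the small subunit 19 core genes were tested, with 15 lower and a median of -0.50. The difference between the subunits was not tested. Rps7, which also binds Mdm2, had log2 signals of 16.65, 16.41 and 16.50 on young and 15.01, 15.69 and 15.93 on aged arrays, with no overlap. The young mean was 1.97-fold the aged mean (-0.98 ± 0.25, limma adjusted p = 0.115), and the other probe set of the gene was at -0.81. Rps7 passed without aged replicate 53 (-1.17, limma adjusted p = 0.0236). It was at -1.51 both with a station term and within the first station, which give the same estimate, that of aged replicate 51.

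Rps2 and Rps3 line the channel through which the messenger RNA enters. Rps2 had log2 signals of 17.29, 16.69 and 16.25 on young and 15.47, 15.99 and 16.20 on aged arrays, and the highest aged array nearly reached the lowest young one. Its change was -0.85 ± 0.29 (limma adjusted p = 0.287), and it was -1.27 with the station in the fit. Rps3 had 16.40, 16.31 and 15.99 on young and 14.92, 15.66 and 15.97 on aged arrays, again with no overlap by a narrow margin. Its change was -0.72 ± 0.27 (limma adjusted p = 0.365), and within the first station, where aged replicate 51 stands alone, it was -1.32 (limma adjusted p = 0.034). Without aged replicate 51 it was -0.42 (limma adjusted p = 0.635). The 2 dimmer probe sets of Rps3 were at -0.087 and 1.10, so the mean over its 3 probe sets was 0.097.

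Rps3a1 was at -0.68 ± 0.26, with non-overlapping groups, and Rps26, near the exit of the messenger RNA, at -0.66 ± 0.25, with groups that overlapped. Rps3a1 was at -0.42 without aged replicate 51 and at -1.21 with the station in the fit (limma adjusted p = 0.0811), and Rps26 was then at -0.43. Rps4x was at -0.54 ± 0.20. Its young arrays lay within 15.91 to 15.94 and its aged arrays within 15.18 to 15.54 on the log2 scale. Rps19, a gene mutated in Diamond-Blackfan anaemia, was at -0.56 ± 0.28. It was at -0.25 without aged replicate 53, at -0.16 with the station in the fit and at 0.10 with the RNA quality ratio. None of these 4 genes passed, with limma adjusted p of 0.348 to 0.53.

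Rps6, the protein phosphorylated by the kinases downstream of mTOR, was measured poorly. Its log2 signals were 11.33, 9.64 and 8.68 on young and 11.21, 9.51 and 9.61 on aged arrays, and the change was 0.22 with a 95% interval of -1.41 to 1.86. Rps27, a zinc-finger protein, was at 0.27 ± 0.53, Rps20 at 0.18 ± 0.22 and Rps9 at 0.073 ± 0.21, which median centring turned to -0.043. With the station in the fit Rps6 was at 1.32 and Rps27 at 1.11, and without aged replicate 51 they were at -0.33 and -0.16. The brightest small-subunit genes, Rps28 and Rps29, were chosen after their values were seen. Rps28 had log2 signals of 17.98, 18.00 and 17.94 on young and 17.93, 17.51 and 18.00 on aged arrays, with overlap (-0.16, 95% interval -0.65 to 0.33, and 0.024 after quantile normalization), and Rps29 was at -0.16 with an interval of -0.68 to 0.36. Over all 44 genes the intervals of 22 lay within a 2-fold change either way, those of 20 reached a 2-fold lower level and those of 6 a 2-fold higher level.

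**Figure D4:**
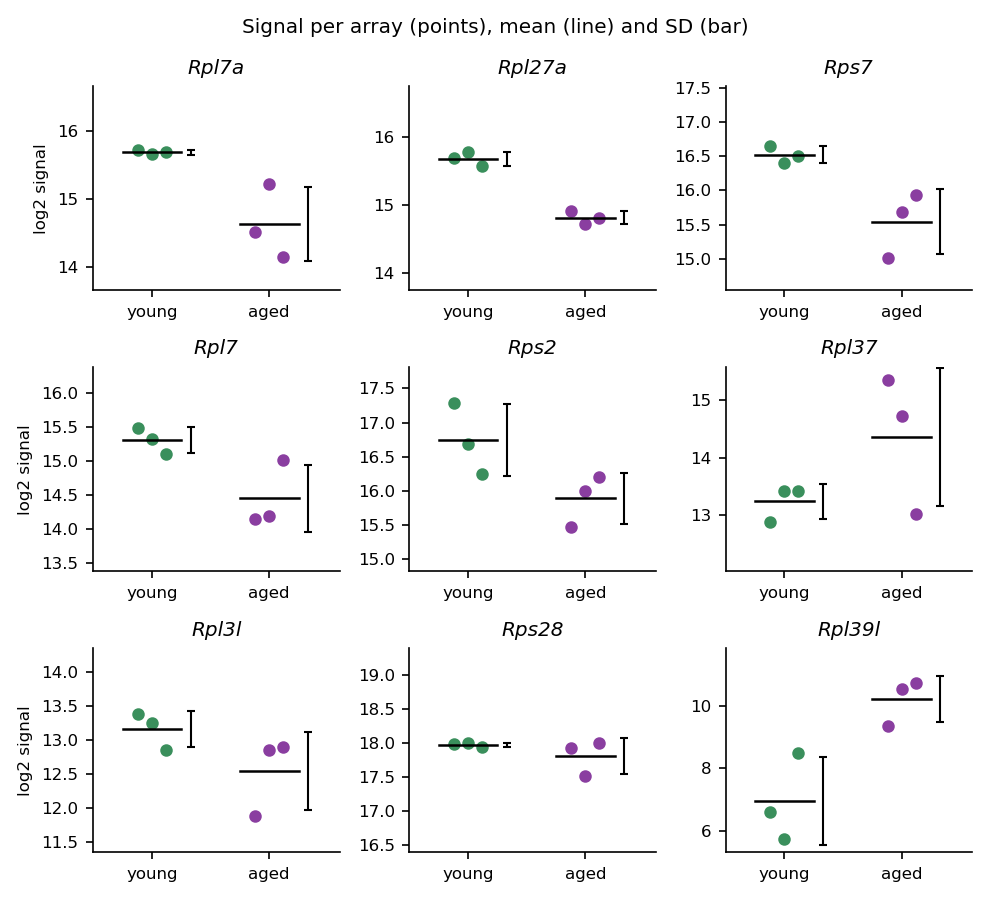
Log2 signal of 9 genes on the 3 young (green) and 3 aged (purple) arrays, with the mean as a line and the SD as a bar beside it; each panel has its own scale. The aged arrays of Rpl7a, Rpl27a, Rps7, Rpl7 and Rps2 all lie below the young ones, Rpl37 is split among its aged arrays, and the dim paralog Rpl39l lies higher on all 3 aged arrays.

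The paralogs differed among themselves. Rpl3l, the large-subunit protein of heart and skeletal muscle, had log2 signals of 13.37, 13.24 and 12.86 on young and 11.88, 12.84 and 12.89 on aged arrays, with aged replicate 51 well below the others and the rest overlapping. Its change was -0.62 ± 0.31 (limma adjusted p = 0.532), and leaving out aged replicate 51 it was -0.29. With the station in the fit it was -1.28 (limma adjusted p = 0.11), and within the first station its limma adjusted p was 0.0869. A comparison with Rpl3 itself was not made, because the probe sets of Rpl3 also name other genes. Rpl7l1, the paralog of Rpl7, was at -0.60 ± 0.32 with non-overlapping groups (11.71, 11.73 and 11.55 on young and 10.95, 11.22 and 11.02 on aged arrays), and its dimmer probe sets were at -0.20 and 0.73. Rpl22l1, the paralog of Rpl22, was at 0.037 ± 0.35, and Rps27l, a paralog of Rps27 that responds to DNA damage, at 0.095 ± 0.28, and median centring put them at -0.078 and -0.021. With the station in the fit they were at -0.76 and -0.31.

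Both remaining paralogs, and the core gene Rps16, were too dim to be tested. Rps4l had a mean log2 signal of 6.53 and Rps16 of 5.72, against a filter at 9.08. Rpl39l, best known from testis, had log2 signals of 6.62, 5.74 and 8.49 on young and 9.36, 10.53 and 10.73 on aged arrays, with no overlap. It was the brightest member left out by the filter, and its aged arrays lay above the filter while its young arrays lay below. In a fit of all probe sets without the filter its change was 3.26 ± 1.13 and did not pass (limma adjusted p = 0.371). Rpl39, its partner, was at -0.24 ± 0.49, at 0.31 without aged replicate 53 and at 0.92 with the RNA quality ratio in the fit. The lowest tested member was Rps19bp1, with a mean log2 signal of 9.14 and a change of 0.036 with a 95% interval of -2.62 to 2.70, and it lay below 0 under both other scalings.

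Probe sets of the same gene did not always give the same answer. Of 91 tested member probe sets 72 were lower in aged muscle. Among 21 genes with several tested probe sets, all pointed one way for 12 genes and both ways for 9. In 14 genes a probe set ending in _x_at stood beside another kind, and in 13 of the 14 the _x_at probe sets were less negative. The median over these genes was -0.035 for _x_at probe sets and -0.36 for the others, at median log2 signals of 14.62 and 12.06. Rps9 showed the greatest gap, with its _x_at probe set at 0.073 and the other at -1.07 (log2 signals 12.40, 12.69 and 12.13 on young and 10.97, 11.52 and 11.51 on aged arrays). Rpl27, chosen after its values were seen, had -0.040 from its _x_at probe set and -0.97 and -0.22 from the others. The _x_at kind stood for 16 of the 44 tested genes. Among all tested probe sets the median change was -0.030 for the _x_at kind, against 0.032 for those ending in _at alone. With probe sets of the kinds prone to cross-hybridisation left out, 33 of the remaining 38 members were lower and the median was -0.34.

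**Figure D5:**
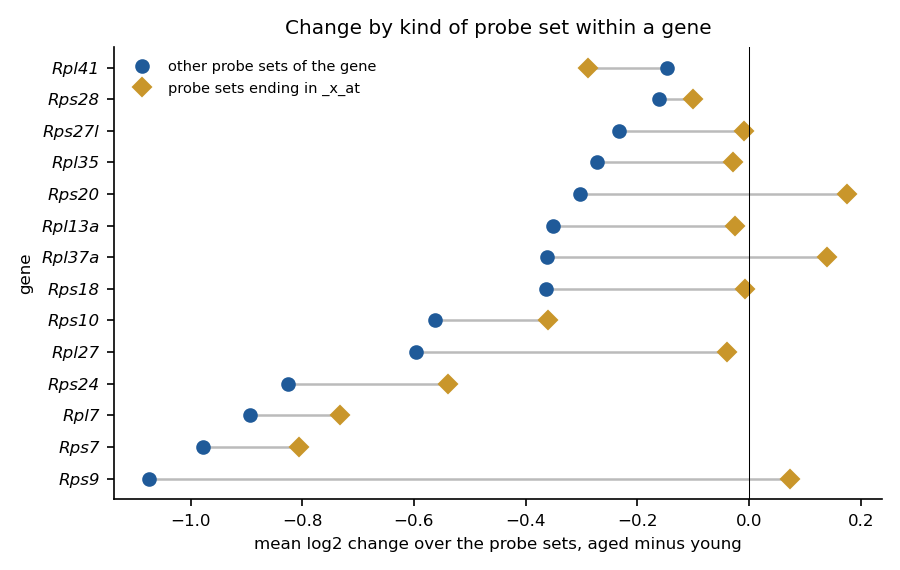
For the 14 genes with tested probe sets of both kinds, diamonds give the mean log2 change of probe sets ending in _x_at and circles that of the gene's other probe sets, aged minus young. The diamond lies to the right of the circle in 13 of 14 genes, Rpl41 being the exception.

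The probe sets that name a ribosomal protein together with other genes gave a second reading of the family. Of 109 such probe sets 98 were bright enough to be tested. Of these 82 were lower in aged muscle, with a median of -0.33, and 43 (43.9%) had all aged arrays below all young arrays, beside 8.74% of all tested probe sets and 25.3% of genes at least as bright as the median member. On 4 the aged arrays all lay above, beside 7.41% of all tested probe sets. The test was passed by 2, both lower, beside 1.05% of all tested probe sets, with a smallest limma adjusted p of 0.0324. They share targets with pseudogenes and with each other, so they are not independent readings.

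Other parts of the translation machinery were followed by lists of genes. Of 4 tested ribosomal proteins with other names 4 were lower and 0 passed (median -0.49). Rplp0, the scaffold of the acidic stalk, was at -1.37 ± 0.31 (limma adjusted p = 0.0686). It passed without a filter, with a pseudocount, with array weights and without aged replicate 53 (-1.63, limma adjusted p = 0.0184). With the station in the fit or within the first station, which both rest on aged replicate 51, it was at -2.10. Of 13 elongation and release factors 11 were lower and 0 passed (median -0.19). Eef1a1, which delivers transfer RNA to the ribosome, was at -1.48 ± 0.32 (limma adjusted p = 0.0513), and among the alternatives it passed were quantile normalization (-1.29, limma adjusted p = 0.0418), leaving out aged replicate 51 (-1.04) or 53 (-1.71), and the station in the fit (-2.35, limma adjusted p = 0.0047). Of 33 initiation factors 22 were lower and 0 passed (median -0.13), with the helicase Eif4a1 at -0.99 ± 0.22 and the GTPase-activating factor Eif5 at 0.81 ± 0.21.

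Of 60 assembly factors 39 were lower and 0 passed (median -0.26), and the greatest change by estimate was that of the dim gene Rrp36 at -2.10 ± 1.03. Of 14 genes of RNA polymerase I and Myc 7 were lower and 7 higher (median -0.053), and of 25 genes listed for the mTOR axis 13 were lower and 12 higher (median -0.020). That list counts Pdk1 (-0.27), which encodes a pyruvate dehydrogenase kinase and is no part of the axis, beside the intended Pdpk1 (0.044). With the station in the fit the assembly factors Brix1 (-3.59) and Heatr1 (-3.16), the polymerase I factor Rrn3 (-3.33) and the initiation factor Eif3m (-2.82) passed, with limma adjusted p of 0.00745 to 0.0206. Of all probe sets 1.31% passed in that fit. Its estimates are those of aged replicate 51 against the young arrays, and the fit within the first station gives the same ones. The kinase Akt1, also dim, was at 3.20 ± 1.07 (limma adjusted p = 0.289). Ddit4, an inhibitor of mTOR that responds to stress and glucocorticoids, was at -1.29 ± 0.30 (limma adjusted p = 0.0803) and was chosen after its values were seen. Proteins of the mitochondrial ribosome, which are translated in the cytosol but serve another ribosome, had 48 of 73 genes lower, 0 past the test and a median of -0.17. At an unadjusted p under 0.05, 9 of them (12.3%) were lower and 0 higher in the limma fit, beside 5.61% and 4.43% of all tested probe sets. Among all genes the share lower rose with brightness, from 1.91% in the dimmest of the 5 groups to 7.48% in group 4 and 16.6% in the brightest. The mitochondrial genes had mean log2 signals of 9.25 to 16.60 and were not matched for brightness.

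Markers of several cell types differed between the same arrays; their summed signals are given in units of 1000. All 10 tested fibroblast markers were lower and 6 passed the test, Col1a1 with the greatest change (-5.71 ± 0.32, limma adjusted p = 3.26e-06). The sum over the 10 was 783 to 1019 on young and 111 to 120 on aged arrays. All 5 tested adipocyte markers were higher and 3 passed, with sums of 73.4 to 85.4 on young and 149.9 to 255 on aged arrays. All 7 tendon markers were lower and 3 passed, and all 4 Schwann cell markers were lower and 2 passed. All 5 lymphocyte markers were higher and 1, Ighm, passed. Of 5 satellite and dividing cell markers 4 were lower and 1, Mki67, passed. Of all tested probe sets 0.742% passed as lower and 0.311% as higher. The sums ran from 74.3 to 89.9 on young and 22.3 to 26.3 on aged arrays for tendon, from 48.9 to 84.6 and 11.1 to 16.8 for Schwann cells, and from 7.83 to 22.2 and 31.9 to 71.0 for lymphocytes. Of blood, macrophage and endothelial markers 0 passed, and no marker was listed at 0. All 12 skeletal muscle markers were lower, with a median of -0.61 and sums of 3685 to 4574.5 on young and 2737 to 3367 on aged arrays. The part of these differences in the levels of ribosomal protein genes was not tested.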

How the data were processed

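The deposited values are a linear intensity per probe set, made by the authors with MAS5 per the submitters' processing notes, with no version named there. The mean of each array was 1500 once the highest and lowest 2% of its probe sets were set aside, so the arrays had been scaled. The run settings deposited with each array, which hold other, non-numeric values, gave only the fluidics station and protocol.

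Intensities were taken to log2 and 64 control probe sets left out. Probe sets with a mean log2 below the median of 9.08 (a signal of 540) were dropped, leaving 22519. Limma 3.58.1 in R 4.3.3 was run with lmFit and eBayes with a trend, two-sided, calling probe sets at an adjusted p under 0.05 by Benjamini-Hochberg over all of them; fold changes and errors are on the log2 scale. No 2 arrays held the same values. Of these steps only the limma fit was tested on simulated data, with changes larger than those of any tested member.

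The platform's gene table gives 1 symbol to 34958 probe sets, several to 932 and none to 9160 others besides controls. All 102 member probe sets matched RefSeq by gene ID, with 0 symbols changed. The text names members past the test, the 8 greatest rises and falls by estimate, paralogs with partners, Rps6, Rpl11, Rps19 and Rpl13a, the members at the filter, and up to 4 genes of each other list. Members, lists and rules were chosen with earlier results of these data known. A planned comparison of Rpl3l with Rpl3 was not made. Brightness groups, probe set kinds and promoter letters are descriptions. Alternatives were quantile normalization, median centring, filters, a pseudocount of 219, array weights, left-out arrays, station and RNA quality covariates, other eBayes settings, a 1.5-fold minimum, left-out probe set kinds and gene means. Figures used matplotlib 3.10.9.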

Additional observations from a re-analysis of the deposited data

Results flagged for a closer look

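Rpl39l was the member whose signal lay outside the tested set: its probe set was left out as dim, yet all 3 aged arrays lay above all 3 young arrays and the means differed by 3.26 on the log2 scale. Its young arrays lay below the filter, so their level is poorly measured.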

How the results depend on the processing

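No paired analysis was possible because the young and aged arrays share no replicate numbers. The number of arrays limits the precision, and dim members had the widest intervals. The median change of ribosomal protein genes was negative in all 21 alternatives, not all of which could move it. It was -0.13 after quantile normalization, -0.32 after median centring (-0.21 relative to all tested genes, as without it), -0.28 with a filter at the 75th percentile, -0.27 with the station as a covariate or within the first station, -0.40 with the RNA quality covariate and -0.34 without probe sets prone to cross-hybridisation, and -0.32 to -0.20 with 1 array left out. Quantile normalization left 29 of 44 members lower in aged muscle, and centring 39. The fits without a trend, with robust eBayes, without moderation or with a 1.5-fold minimum keep the main estimates. Their median of -0.20 was therefore fixed in advance, and the station covariate and the first station give the same estimates.

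The count of members past the test rose from 0 to 1 with the filter at the 75th percentile, with array weights and with the station as a covariate, to 4 within the first station and to 2 with the RNA quality covariate, and was 0 to 4 with 1 array left out. Genes of the other translation lists past the test numbered 0, and 2 after quantile normalization, without a filter or with a pseudocount, 1 with the stricter filter, robust eBayes or without probe sets prone to cross-hybridisation, 3 with array weights, 6 with the station as a covariate or within the first station, and 0 to 3 with 1 array left out. The cause was not tested.

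Changes of sign are given for the members chosen by the naming rule, and other members, such as Rps15 (-0.33, and 0.43 with the RNA quality covariate), changed sign too. After quantile normalization Rpl12 was at -0.014, Rpl11 at 0.019 and Rps19bp1 at -0.027. After median centring Rpl12 was at -0.014, Rps27l at -0.021, Rps9 at -0.043, Rpl22l1 at -0.078, Rpl13a at -0.10 and Rps19bp1 at -0.080. With array weights Rpl13a was at -0.048. With the station as a covariate and within the first station Rpl12 was at -0.082, Rps27l at -0.31, Rps9 at -0.074, Rpl22l1 at -0.76 and Rpl39 at 0.081. With the RNA quality covariate Rps20 was at -0.17, Rpl38 at -0.0055, Rps27l at -0.18, Rps9 at -0.23, Rpl22l1 at -0.18, Rpl39 at 0.92, Rps19 at 0.10 and Rpl13a at -0.45. Without probe sets prone to cross-hybridisation Rps20 was at -0.30, Rps27l at -0.23 and Rpl13a at -0.36. Averaged over probe sets Rps3 was at 0.097, Rps27l at -0.083, Rps9 at -0.50 and Rpl13a at -0.19. With 1 array left out the ranges were -0.0029 to 0.27 for Rpl38, -0.34 to 0.49 for Rpl12, -0.063 to 0.30 for Rps27l, -0.20 to 0.43 for Rpl22l1, -0.38 to 0.95 for Rps6, -0.068 to 0.15 for Rps9, -0.63 to 0.31 for Rpl39, -0.19 to 0.22 for Rpl13a, -0.16 to 0.69 for Rps27, -0.19 to 0.059 for Rpl11 and -0.78 to 1.41 for Rps19bp1.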
